A study of Mus musculus with 35 samples.

Results

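The endothelial and vessel genes examined here were Pecam1, Cdh5, Kdr, Flt1, Tek, Tie1, Vwf, Eng, Emcn and Angpt2, 10 of 22830 named genes counted in bulk RNA-seq of mouse skin wounds. They were chosen by symbol, as genes that mark the cells lining blood vessels or take part in their growth, and for a symbol with several transcripts the row with the largest total count was taken. All 10 were found in both deposited tables and all 10 passed the filter on low counts in each comparison. The study asked how loss of type V collagen in fibroblasts changes the injured tissue, and whether WT fibroblasts or cilengitide, an inhibitor of integrin alpha v that was designed to limit vessel growth, change it in turn.

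There were 35 libraries, each from a punch biopsy of a wound. The first table held 23 of them. Those of day 14 came from 7 WT wounds, 7 Col5a1CKO wounds and 3 Col5a1CKO wounds that had received WT fibroblasts by injection at day 3, and those of day 19 from 3 wounds of each genotype. A second table held 4 WT wounds with vehicle, 4 Col5a1CKO wounds with vehicle and 4 Col5a1CKO wounds of mice given cilengitide, which the series dates to day 14. Col5a1CKO mice carried Col5a1 fl/fl and Col1a2-CreERT, a tamoxifen-induced recombinase driven by a fibroblast collagen promoter, and WT mice were Cre-negative Col5a1 fl/fl littermates, so every mouse carried the floxed allele and received tamoxifen. The methods describe male and female mice of 8 to 12 weeks on C57BL/6, PBS for mice that received no fibroblasts or no cilengitide, and daily cilengitide at 20 mg/kg from the day before wounding. Cre is not directed at endothelial cells in this model, and the source of each library is a whole piece of tissue: fewer endothelial cells and less RNA per endothelial cell cannot be told apart in any of the values. One field of the labels places the WT fibroblasts on the Col5a1CKO wounds of day 19 while the titles place them at day 14. The titles were followed.

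Endothelial cells hold to each other through VE-cadherin (Cdh5) and PECAM-1 (Pecam1), and they grow toward VEGF, which they sense through VEGFR2 (Kdr), with VEGFR1 (Flt1) acting largely as a decoy. A second system steadies or loosens vessels: angiopoietin-1 from the surrounding cells activates Tie2 (Tek), to which Tie1 is a partner receptor, and angiopoietin-2 (Angpt2), released by activated endothelium, mostly opposes it. Endoglin (Eng) is a co-receptor for TGF-beta and BMP ligands that rises in proliferating endothelium, von Willebrand factor (Vwf) is stored in endothelial cells and platelets and binds platelets at injury, and endomucin (Emcn) coats venous and capillary endothelium. In skin repair, capillaries invade the granulation tissue and many regress as the wound matures.

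Promoters are shown for the members with the smallest adjusted p in the comparison that called the most members, which was Col5a1CKO against WT at day 14: Kdr, Cdh5, Eng and Flt1. Promoters were found for 6 of the 10 members (Kdr, Flt1, Tek, Tie1, Eng and Emcn; none for Cdh5) in a RefSeq table of build GRCm38.p6, each covering 250 bases before to 50 bases after the start. Capitals mark AGGAAG or CGGAAG on either strand, letters bound by ETS factors such as ERG and FLI1 that are known to drive many endothelial genes. The windows lie at chr5:75978406-75978705 on the minus strand, chr5:147725962-147726261 on the minus strand and chr2:32646345-32646644 on the plus strand, and read 5′ to 3′ along the gene:
Kdr: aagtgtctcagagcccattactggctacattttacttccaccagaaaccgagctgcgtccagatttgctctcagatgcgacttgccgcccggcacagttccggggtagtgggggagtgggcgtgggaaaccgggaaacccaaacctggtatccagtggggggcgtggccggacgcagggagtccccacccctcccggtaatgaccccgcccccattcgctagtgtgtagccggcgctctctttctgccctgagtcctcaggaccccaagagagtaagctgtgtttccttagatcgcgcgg
Flt1: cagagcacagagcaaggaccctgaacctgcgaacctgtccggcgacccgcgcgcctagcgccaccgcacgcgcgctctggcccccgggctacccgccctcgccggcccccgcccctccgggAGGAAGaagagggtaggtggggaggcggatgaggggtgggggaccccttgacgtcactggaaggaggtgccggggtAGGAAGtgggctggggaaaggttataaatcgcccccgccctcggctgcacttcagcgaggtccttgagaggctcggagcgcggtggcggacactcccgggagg
Eng: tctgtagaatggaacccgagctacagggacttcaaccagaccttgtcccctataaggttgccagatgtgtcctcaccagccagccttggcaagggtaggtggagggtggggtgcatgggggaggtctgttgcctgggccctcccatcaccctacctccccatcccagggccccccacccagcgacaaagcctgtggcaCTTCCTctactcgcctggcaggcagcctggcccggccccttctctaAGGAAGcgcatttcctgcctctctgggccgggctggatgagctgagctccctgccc
The Flt1 and Eng windows held 2 matches each and the Kdr window 0. Over the members, 4 of 6 windows held a match, against 46.5% of 32851 promoters of the same length. A match says nothing about binding.

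Total counts ran from 15043531 to 35700325 in the first table and from 51211600 to 68266760 in the second. The lowest count of any member in any library was 10 (Tie1 in WT day 14 wound b). In the first table the libraries fell into a lower and an upper set by the level of GC-rich against GC-poor genes. The widest step between neighbouring libraries in this measure was 1.58 (log2) and the next widest 0.35. WT a to d and Col5a1CKO a to e of day 14 formed the lower set, and all other libraries, including every fibroblast and day 19 library, the upper set. In the second table WT vehicle wounds 3 and 4 stood apart, with summed member levels of 98.3 and 76.6 CPM (read counts scaled to a common library total with TMM factors) against 328.2 and 502.3 in wounds 1 and 2. Col5a1 itself, the targeted gene, had log2 fold changes of -1.43 at day 14, -1.69 at day 19 and -1.17 with vehicle in Col5a1CKO against WT, but the ranges of the libraries overlapped each time (adjusted p = 0.0757, 0.272 and 0.232). The study itself reports Col5a1 as significantly lower in Col5a1CKO skin at day 14, by PCR and by RNA-seq. Those were tests of a single gene, whereas the adjusted p here is over all genes.

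Per kilobase of transcript (RPKM), the order of levels in WT wounds at day 14 was led by Pecam1, with a median of 16.9 (6.67 to 32.8, n = 7), then Cdh5 at 8.49 (3.34 to 13.4), Eng at 7.65, Angpt2 at 7.42, Emcn at 7.40, Tek at 4.17, Tie1 at 2.96, Kdr at 2.56, Vwf at 1.47 and Flt1 at 1.05 (0.201 to 1.46). The ranges of neighbours in this order overlapped at every step. In Col5a1CKO wounds at day 14 Pecam1 again led with 46.9 RPKM and Flt1 was last with 4.17, and at day 19 Vwf had 18.3 RPKM in Col5a1CKO and 16.1 in WT wounds. All defining endothelial transcripts were thus present in each group.

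At day 14, transcripts of the junction proteins and VEGF receptors were higher in Col5a1CKO than in WT wounds. Of the 10 members, 6 were called higher (Cdh5, Pecam1, Kdr, Flt1, Eng and Vwf) and 0 lower, where 5.57% of 14367 genes tested were called higher and 2.71% lower (800 and 390 genes, or 1018 and 246 with scaling by library size alone). Leaving out 1 wound gave 494 to 928 genes higher and 191 to 984 lower, and lower calls exceeded higher calls without Col5a1CKO wound g (984 against 919), where 7 members were called higher. A call required a Benjamini-Hochberg adjusted p under 0.05 over all genes tested and a 2-fold change in edgeR's quasi-likelihood test. All 10 log2 fold changes were positive, with a median of 1.47 against -0.03 over all genes. In 5 members every Col5a1CKO wound lay above every WT wound (Cdh5, Kdr, Flt1, Tie1 and Eng), as did 2.31% of all genes tested.

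Cdh5 had a lowest, median and highest level of 15.99, 37.1 and 56.1 CPM in the 7 WT wounds and of 66.4, 101.1 and 156.7 CPM in the 7 Col5a1CKO wounds. The groups did not overlap, and the fold change was 3.10 (log2 1.63 ± 0.294 SE, adjusted p = 0.00637). Pecam1, which also marks platelets and some leukocytes, had 26.5, 58.0 and 114.4 CPM in WT and 74.1, 169.2 and 232.7 CPM in Col5a1CKO wounds. Its groups overlapped through the lowest Col5a1CKO wounds, g and d, and its fold change was 2.59 (log2 1.37 ± 0.366, adjusted p = 0.0283).

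Kdr ran from 5.80 through a median of 14.4 to 21.9 CPM in WT and from 27.7 through 39.1 to 62.7 CPM in Col5a1CKO wounds, 3.06-fold higher (log2 1.62 ± 0.289, adjusted p = 0.00617). Flt1 ran from 1.39 through 7.19 to 10.9 CPM in WT and from 15.8 through 26.3 to 46.2 CPM in Col5a1CKO wounds. That was the largest fold change of the 10 members, 4.32 (log2 2.11 ± 0.387, adjusted p = 0.00663), and neither receptor overlapped between the groups. Eng had 24.0, 31.2 and 38.7 CPM in WT and 51.5, 75.9 and 192.4 CPM in Col5a1CKO wounds (log2 1.55 ± 0.282, adjusted p = 0.00663). The WT wounds were tightly grouped for Eng, while wound f alone made the upper end in Col5a1CKO.

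The angiopoietin receptors and ligand did not pass the test. Tek had 4.42, 22.1 and 34.3 CPM in WT and 16.6, 31.5 and 68.3 CPM in Col5a1CKO wounds, with wide overlap (log2 0.90 ± 0.484, adjusted p = 0.245). Tie1 had 0.692, 11.9 and 26.8 CPM in WT and 27.2, 34.8 and 75.1 CPM in Col5a1CKO wounds. Its groups did not overlap, but its spread in WT was wide and its adjusted p was 0.0539 (log2 1.69 ± 0.530). Angpt2 had 2.61, 19.0 and 38.2 CPM in WT and 12.9, 48.7 and 61.8 CPM in Col5a1CKO wounds, with log2 1.29 ± 0.593 and adjusted p = 0.172. Both groups held low libraries, WT e to g and Col5a1CKO d and g. Vwf was called (14.7 CPM median in WT, 41.2 in Col5a1CKO, log2 1.40 ± 0.344, adjusted p = 0.0203) and Emcn was not (11.7 and 39.7 CPM, log2 0.89 ± 0.478, adjusted p = 0.242).

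**Figure D1:**
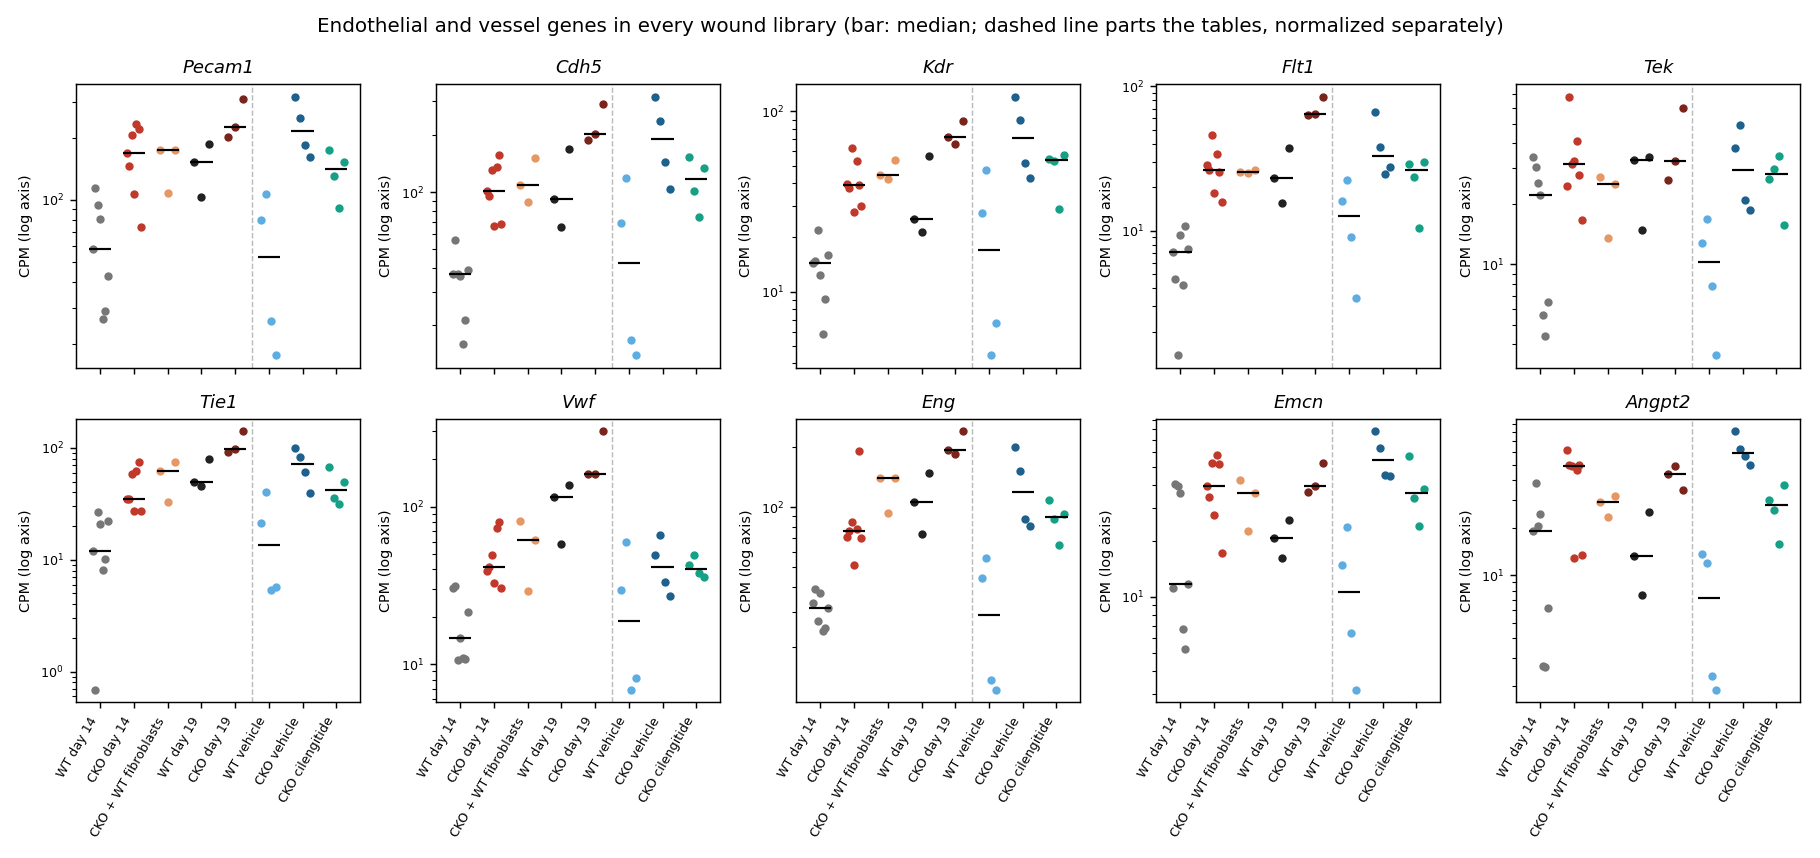
CPM of each member on a log axis in all 35 libraries by group, 1 point per wound with the median as a bar; the dashed line parts the tables, which were normalized separately. Col5a1CKO wounds lie above WT wounds for Cdh5, Kdr, Flt1, Tie1 and Eng at day 14, and WT vehicle wounds split into 2 high and 2 low libraries.

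Within the library sets all 10 fold changes stayed positive. The lower set (4 WT, 5 Col5a1CKO) gave log2 fold changes of 0.40 to 2.44 and called Cdh5, Kdr, Flt1 and Eng, with 532 genes higher and 423 lower of 14472. The upper set (3 WT, 2 Col5a1CKO) gave 1.55 to 3.13 and called Eng and Tek, with 1350 genes higher and 63 lower of 15312. Angpt2 differed by 0.76 in the lower and 3.13 in the upper set, Tek by 0.48 and 2.11, and Emcn by 0.40 and 2.22. With the set as a covariate 9 members were called, all but Emcn, with 1299 genes higher and 558 lower of 14367.

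Other parts of the vascular programme, from lists chosen by function, were read beside the members at day 14. Of 16 other pan-endothelial genes, 7 were called higher and 0 lower, with all 16 fold changes positive and a median log2 of 1.28. The largest were Plvap, which forms the diaphragms of leaky capillaries (log2 2.20 ± 0.452, adjusted p = 0.00984), the sphingosine-1-phosphate receptor S1pr1 (1.76 ± 0.398) and the BMP receptor Acvrl1 (1.51 ± 0.394). Of 5 leukocyte-recruiting endothelial genes tested, 4 were called higher, with E-selectin (Sele) at log2 4.78 ± 1.04, P-selectin (Selp, also stored in platelets) at 3.77 ± 0.707 and the chemokine receptor Darc (Ackr1) of venules at 1.61 ± 0.406. Of the 11 endothelial transcription factors 2 were called higher, Tal1 (2.46 ± 0.680) and Fli1 (1.77 ± 0.251). Sox7, also expressed outside endothelium, was lower (-2.06 ± 0.619).

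On the VEGF side 1 of 8 ligands and other receptors was called, the co-receptor Nrp2 (log2 1.87 ± 0.315, adjusted p = 0.00489), and the list's median was 1.05. None of 4 angiopoietin partners was called higher or lower, and the 2 with the smallest adjusted p were Svep1, a Tie1 ligand (1.76 ± 0.652, adjusted p = 0.0970), and the phosphatase Ptprb (1.09 ± 0.458, adjusted p = 0.139). Among 11 Notch and arterial or venous genes, the endothelial receptor Notch4 (1.95 ± 0.504) and the venous factor Nr2f2 (1.54 ± 0.417) were called higher. Of 10 genes of tip cells and angiogenic activation, the apelin receptor Aplnr (1.67 ± 0.353) and Mcam (1.60 ± 0.381) were called higher. Of 7 lymphatic genes only Pdpn was called (1.61 ± 0.446), and Pdpn is also made by fibroblasts and macrophages. Of 10 mural cell genes, Pdgfrb (2.15 ± 0.414), also a fibroblast gene, and the smooth muscle actin Acta2 (1.80 ± 0.536), also of myofibroblasts, were called higher.

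Markers of other cells were also read at day 14, and they did not all go the way of the members. Of 8 leukocyte markers tested 4 were called higher, among them Itgam (log2 2.55 ± 0.433) and Ptprc (2.14 ± 0.447), and the summed level of the list was 1053 to 6454 CPM for WT, against 2376 to 11417 for Col5a1CKO. All 4 red blood cell genes were called higher (for example Alas2 at 3.01 ± 0.764; the globin copies Hbb-b1 and Hbb-b2 carried equal values and cannot be told apart), with summed levels of 21.2 to 122.8 and 132.2 to 768.1 CPM. One of 4 platelet markers tested, Ppbp, was called higher (4.88 ± 1.04), with the list at 71.0 to 183.2 and 97.6 to 617.3 CPM. Of 7 fibroblast markers Pdgfra (2.36 ± 0.583) and Thy1 (1.14 ± 0.311) were called higher, with summed levels of 8553 to 84837 and 31677 to 128982 CPM. None of 6 keratinocyte markers was called, but all 6 were lower (median log2 -1.78), and their summed level was 30510 to 151845 CPM for WT, against 31.7 to 56674 for Col5a1CKO. No marker of any list was at 0 in every library of a group. Skeletal muscle and adipocyte markers gave no call (0 of 6 and 0 of 3 tested). The part of these cells in the members' result was not tested.

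**Figure D2:**
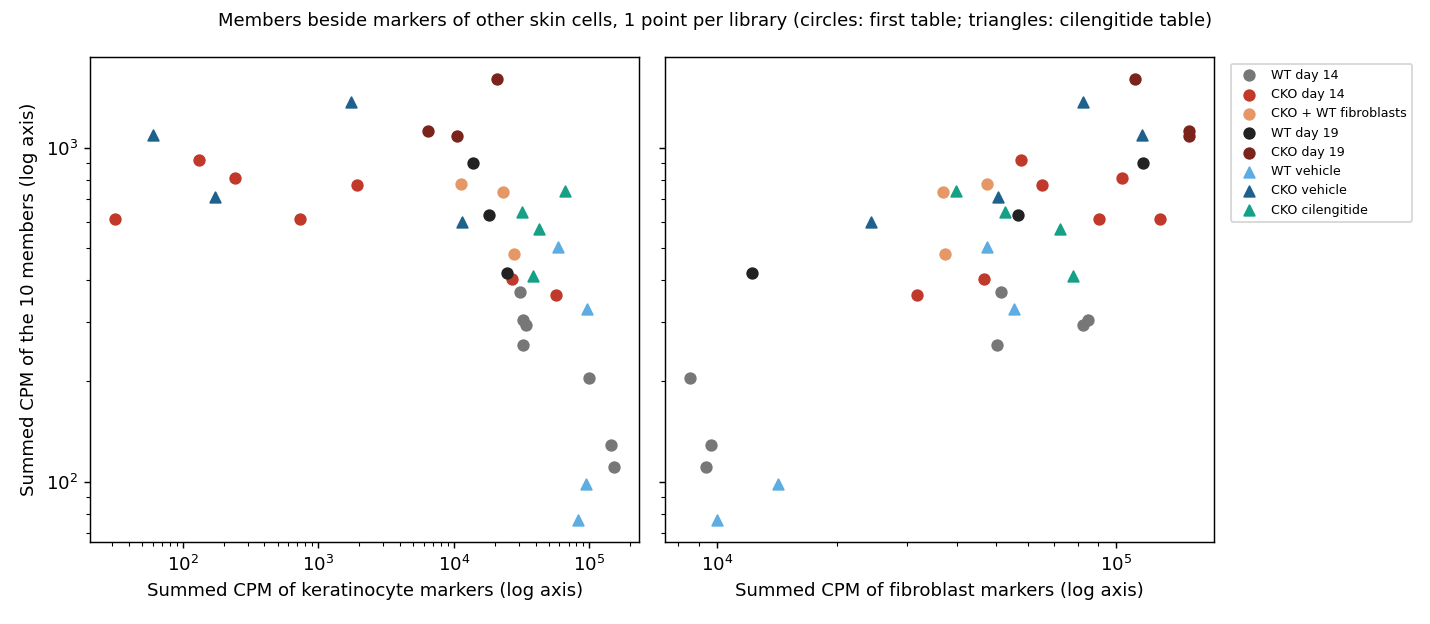
Summed CPM of the 10 members against the summed CPM of 6 keratinocyte markers (left) and 7 fibroblast markers (right), both axes on log scales, 1 point per library, circles for the first table and triangles for the second. The lowest member sums (76.6 to 128.3) were in WT vehicle wounds 3 and 4 and WT day 14 wounds e and f, which also had low fibroblast sums (9399 to 14189) and high keratinocyte sums (82767 to 151845). Among WT day 19 wounds, b was lowest in both sums, with 12234 for fibroblasts and 422.4 for the members. Wound c was highest in both, with 116568 and 901.1. The lowest WT day 14 fibroblast sum, 8553, was in a wound other than e and f, and those other wounds had member sums of 204.6 to 369.6. The relation between the sums was not tested.

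At day 19 the members' levels leaned to Col5a1CKO without a call. All 10 log2 fold changes of Col5a1CKO against WT were positive, from 0.56 (Tek) to 1.52 (Flt1 and Angpt2), with a median of 1.07 against -0.01 over all genes. No member was called, where 0.0198% of 15135 genes were called higher and 0% lower. At an unadjusted p under 0.05 there were 8 of 10 members and 3652 genes. DESeq2 called 3 members (Flt1, Emcn and Angpt2), with 684 genes higher and 713 lower over all genes. In 9 members, all but Tek, the 3 Col5a1CKO wounds lay above the 3 WT wounds, which held for 16.4% of all genes in that direction.

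Flt1 had 23.4, 15.6 and 37.1 CPM in WT wounds a, b and c and 63.0, 64.5 and 84.8 CPM in Col5a1CKO wounds a, b and c (log2 1.52 ± 0.370, adjusted p = 0.129). Emcn had 20.7, 16.2 and 25.9 CPM in WT and 36.6, 39.3 and 52.3 CPM in Col5a1CKO wounds (log2 1.08 ± 0.259, adjusted p = 0.126). Angpt2 had 13.2, 7.47 and 25.1 CPM in WT and 43.5, 49.3 and 34.6 CPM in Col5a1CKO wounds (log2 1.52 ± 0.484, adjusted p = 0.157). For Flt1 and Angpt2 WT wound c was the highest of its group and wound b the lowest. Without WT wound c 6 members were called (Cdh5, Kdr, Flt1, Tie1, Emcn and Angpt2), together with 412 genes higher and 600 lower over all genes, and without any other single wound 0 members were called. WT wounds c and b had summed fibroblast markers of 116568 and 12234 CPM, and the part of this in the result was not tested.

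The other vascular lists gave 0 calls at day 19. Sele (log2 3.20 ± 0.419, adjusted p = 0.110), Selp (3.01 ± 0.412, adjusted p = 0.110), the endothelial Notch ligand Dll4 (1.23 ± 0.237, adjusted p = 0.110) and Vegfc (1.62 ± 0.313, adjusted p = 0.110) had the smallest adjusted p of their lists. The median log2 fold change was 0.55 over the 16 other pan-endothelial genes, of which 14 were positive, 1.46 over the 4 angiopoietin partners and 1.19 over the fibroblast markers. That of the 8 leukocyte markers was -0.24, with 3 positive and 5 negative.

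The difference between the days was itself tested. The genotype effect at day 19 minus that at day 14 ran from -0.74 (Tie1) to 0.21 (Angpt2) on the log2 scale, with adjusted p of 0.9923 to 0.9999 in the members, and 0 of 15954 genes passed an adjusted p under 0.05 (938 at an unadjusted p under 0.05). All day 19 wounds were in the upper library set, and within that set the difference was -1.63 to -0.03, with adjusted p of 0.227 to 0.987.

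After injection of WT fibroblasts no member passed the test against Col5a1CKO wounds that received none, which the methods describe as given PBS and the labels only as wounded. Against Col5a1CKO wounds at day 14 the log2 fold changes were 5 positive and 5 negative, from -0.66 (Tek) to 0.49 (Eng), with a median of 0.00 against -0.04 over all genes. No member was called in either direction, and neither was any gene (0% higher and 0% lower of 15659), with 0 members and 2001 genes at an unadjusted p under 0.05. With the 3 Col5a1CKO wounds of the same letters alone, all of the lower library set, 1704 genes were called higher and 1412 lower but 0 members, and 2 genes were called higher without Col5a1CKO wound g. DESeq2 called 0 members, 9 genes higher and 10 lower. All 10 members overlapped between the groups.

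Cdh5 had 109.4, 88.6 and 151.7 CPM in the wounds with WT fibroblasts a, b and c, inside the range of the 7 Col5a1CKO wounds (66.4 to 156.7; log2 0.11 ± 0.301, adjusted p = 0.872). Eng had 140.5, 94.1 and 140.3 CPM, above the Col5a1CKO median of 75.9 and below its highest wound of 192.4 (log2 0.49 ± 0.359, adjusted p = 0.533). Tek had 27.1, 13.5 and 25.1 CPM against a median of 31.5 (log2 -0.66 ± 0.404, adjusted p = 0.467), and Angpt2 had 29.1, 23.3 and 31.5 CPM against 48.7 (log2 -0.53 ± 0.479, adjusted p = 0.617). All 3 fibroblast wounds are of the upper library set. Against the 2 Col5a1CKO wounds of that set the log2 fold changes ran from -0.12 to 0.50 with 0 calls. In the lists, all 7 fibroblast markers had negative fold changes (median log2 -1.20) and 0 were called, and Angpt1, the Tie2 agonist, had -2.62 ± 0.764 (adjusted p = 0.365).

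Wounds with WT fibroblasts were also set against WT wounds of day 14. This comparison shares its fibroblast wounds with the one above and its WT wounds with the genotype comparison. Here 5 members were called higher (Cdh5, Kdr, Flt1, Eng and Vwf) and 0 lower, where 3.77% of 15317 genes were called higher and 2.06% lower. All 10 fold changes were positive with a median log2 of 1.81 against 0.03 over all genes, and 5 members (Cdh5, Kdr, Flt1, Tie1 and Eng) did not overlap, against 9.91% of genes higher without overlap. Eng was 4.47-fold higher (log2 2.16 ± 0.245, adjusted p = 0.000813), Kdr 3.81-fold (log2 1.93 ± 0.362, adjusted p = 0.0100) and Cdh5 3.69-fold (log2 1.88 ± 0.358, adjusted p = 0.0105). Tek differed by only 0.38 ± 0.661 (adjusted p = 0.802). Against the 3 WT wounds of the same library set all 10 members were called, with log2 fold changes of 1.91 to 3.02, where 2999 of 15132 genes were called higher and 1691 lower. Those WT wounds, e to g, were the 3 lowest of the WT group for Pecam1, Tek and Angpt2. Without fibroblast wound c 1 member was called (Eng) and 207 genes were higher, and without a or b 3 members (Cdh5, Kdr and Eng) and 253 or 268 genes.

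Of 11 endothelial transcription factors 5 were called higher against WT, among them Sox18 (log2 2.69 ± 0.443), Erg (2.33 ± 0.414) and the flow-responsive Klf2 (2.08 ± 0.351), and of 16 other pan-endothelial genes 3 (Plvap 3.17 ± 0.413, Rasip1 2.16 ± 0.358 and Egfl7 1.51 ± 0.328). Of the VEGF list 1 of 8 was called higher, of tip cell and activation genes 2 of 10, of leukocyte-recruiting genes 3 of 5, and of angiopoietin partners, Notch, lymphatic and mural genes 0. Of 8 leukocyte markers 4 were called higher (Itgam 2.37 ± 0.417), as were 3 of 4 red blood cell genes. Their part in the members' result was not tested.

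**Figure D3:**
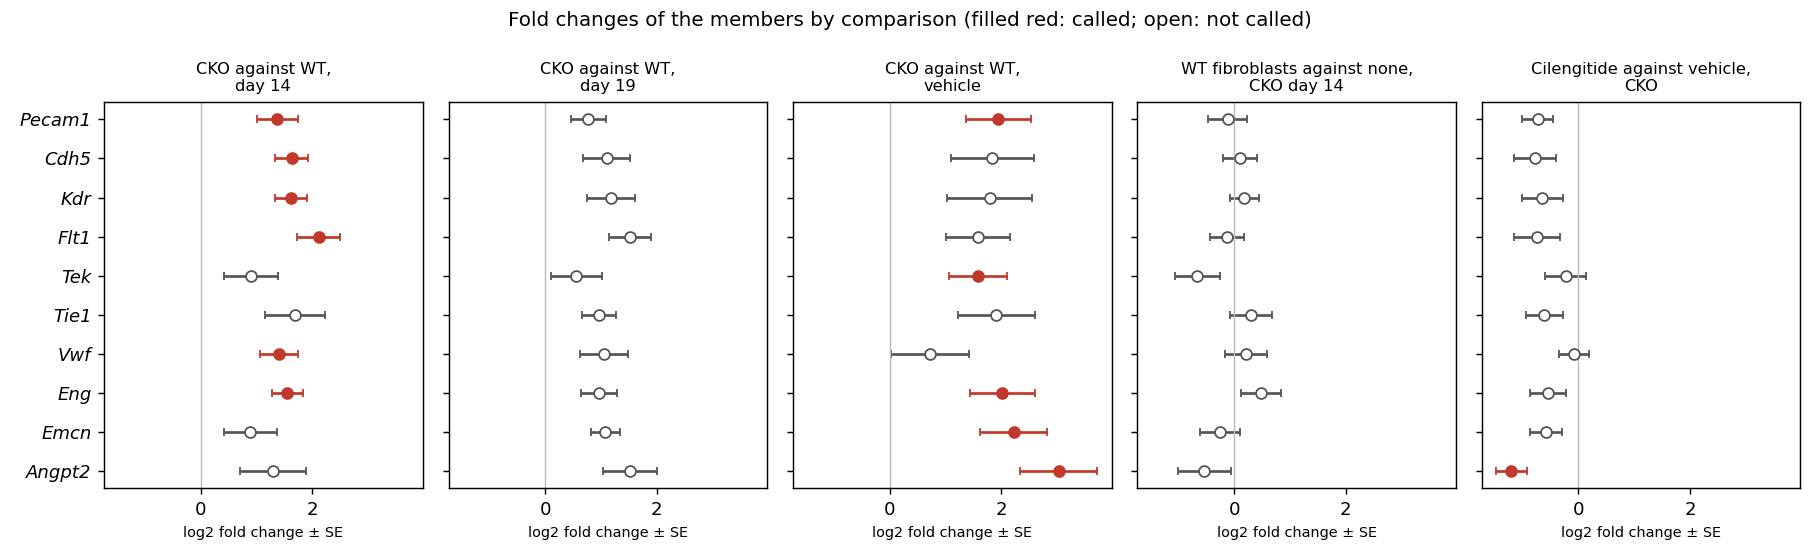
Log2 fold change of each member with its standard error in 5 comparisons; filled red points passed the test (adjusted p under 0.05 and 2-fold) and open points did not. Day 14 has 6 filled points, day 19 and the fibroblast comparison 0, the vehicle comparison 5, and cilengitide against vehicle 1, Angpt2, on the negative side.

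In the vehicle experiment 5 of 10 members were called higher in Col5a1CKO than in WT wounds (Angpt2, Emcn, Eng, Pecam1 and Tek) and 0 lower, where 17.5% of 15434 genes were called higher and 13.4% lower. All 10 fold changes were positive with a median log2 of 1.88 against 0.02 over all genes, and 6 members did not overlap (those 5 and Flt1), against 24.1% of all genes in that direction. The background of calls was thus far higher than at day 14, and all 10 members had lower levels in WT wounds 3 and 4 than in WT wounds 1 and 2.

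Angpt2 had 13.5, 11.97, 2.30 and 1.90 CPM in WT wounds 1 to 4 and 81.0, 62.7, 56.3 and 49.7 CPM in Col5a1CKO wounds 1 to 4. The lowest Col5a1CKO wound lay above the highest WT wound, and the fold change was 8.17 (log2 3.03 ± 0.688, adjusted p = 0.00903). Emcn had 14.9, 23.9, 6.40 and 3.17 CPM in WT and 77.7, 63.2, 45.2 and 44.8 CPM in Col5a1CKO wounds, 4.64-fold higher (log2 2.22 ± 0.595, adjusted p = 0.0176). Eng had 44.1, 55.4, 13.6 and 12.2 CPM in WT and 201.2, 152.1, 87.8 and 81.0 CPM in Col5a1CKO wounds (log2 2.02 ± 0.584, adjusted p = 0.0232). The groups did not overlap for these 3 genes, nor for Pecam1, Tek and Flt1, and Eng was not called without WT wounds 3 and 4.

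Pecam1 (log2 1.95 ± 0.589, adjusted p = 0.0272) and Tek (1.59 ± 0.521, adjusted p = 0.0368) were also called. Cdh5 had 68.4, 118.3, 16.7 and 14.0 CPM in WT and 317.7, 235.4, 143.7 and 104.0 CPM in Col5a1CKO wounds. WT wound 2 exceeded Col5a1CKO wound 4, and the difference did not pass (log2 1.84 ± 0.741, adjusted p = 0.0720). Kdr (1.79 ± 0.764, adjusted p = 0.0848), Flt1 (1.58 ± 0.578, adjusted p = 0.0533) and Tie1 (1.91 ± 0.690, adjusted p = 0.0509) did not pass either. Vwf differed least, with 29.7, 59.6, 6.92 and 8.19 CPM in WT and 49.5, 66.4, 33.4 and 27.0 CPM in Col5a1CKO wounds (log2 0.72 ± 0.698, adjusted p = 0.420).

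Without WT wounds 3 and 4 2 members were called, Angpt2 (log2 2.23, adjusted p = 0.0106) and Emcn (1.51, adjusted p = 0.0337), and Vwf turned to -0.07. Leaving out 1 wound at a time gave 2 to 9 calls. There were 9 without WT wound 2, 2 without WT wound 3 or Col5a1CKO wound 1, and 3 without Col5a1CKO wound 2, and Angpt2 and Emcn were called each time. Over all genes these fits called 2194 to 2917 higher and 1816 to 2378 lower. Without both low WT wounds it was 1301 and 1304. DESeq2 called 9 members, all but Vwf, with 3190 genes higher and 2272 lower of 15434.

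Other vascular lists were set beside the 17.5% of all genes called higher and 13.4% called lower in this comparison. The Notch and arterial or venous list (2 of 11 higher) and the mural list (2 of 10) were near that share. The lymphatic list (2 of 7) and the angiopoietin partners (1 of 4) were not far above it. Of 16 other pan-endothelial genes 10 were higher (Acvrl1 at log2 3.23 ± 0.619, Ecscr at 2.84 ± 0.551, Cd93 at 2.75 ± 0.615), of 10 tip cell and activation genes 7 (Cxcr4 at 3.73 ± 0.646, Pgf at 3.43 ± 0.717, Kcne3 at 2.53 ± 0.846) and all 5 leukocyte-recruiting genes tested (Selp at 3.66 ± 0.667). The VEGF ligands and receptors had 5 of 8 called higher, with Pgf, a Flt1 ligand, and Vegfc, a ligand of VEGFR3 (2.60 ± 0.554), and among the angiopoietin partners Angpt1 was called (2.39 ± 0.715, adjusted p = 0.0265). Of the 11 transcription factors 7 were higher (Klf2 at 3.02 ± 0.559) and 2 lower (Sox7 at -3.13 ± 0.287, Klf4 at -2.69 ± 0.569), both also expressed outside endothelium. Mural cell genes split, 2 higher (Acta2 at 3.14 ± 0.782) and 2 lower (Ndufa4l2 at -2.44 ± 0.822, Notch3 at -1.96 ± 0.426). Both directions passed also among the 11 Notch and arterial or venous genes, with Notch4 (2.31 ± 0.615) and Nr2f2 (1.98 ± 0.528) higher and Efnb2 (-1.06 ± 0.224), an arterial ligand also found in epidermis, lower. Of 7 lymphatic genes Pdpn (3.50 ± 0.482) and Lyve1 (2.12 ± 0.492), also a macrophage gene, were higher.

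Beside this, 7 of 9 leukocyte markers were called higher and 1 lower (summed 355.5 to 1709 CPM for WT, 4253 to 22516 for Col5a1CKO), 4 of 4 red blood cell genes higher, 3 of 7 fibroblast markers higher (9982 to 55585 and 24339 to 115820 CPM) and 3 of 6 keratinocyte markers lower (58601 to 95118 and 59.97 to 11483 CPM). Of 4 platelet markers tested, Ppbp and Pf4 were higher and Gp1bb lower. Their part in the members' result was not tested.

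With cilengitide, 1 of 10 members, Angpt2, was called lower than with vehicle in Col5a1CKO wounds, a share near that of all genes. All 10 members had negative log2 fold changes, with a median of -0.63 against -0.06 over all genes. No member was called higher, where 6.48% of 15563 genes were, and 1 of 10 was called lower, where 6.59% were. Angpt2 had 29.7, 25.9, 15.7 and 37.0 CPM in cilengitide wounds 1 to 4, all below the lowest vehicle wound of 49.7 CPM, and was the only member without overlap, which held for 13.4% of genes in that direction. Its fold change was 0.437 (log2 -1.20 ± 0.271, adjusted p = 0.0193). The call was lost without cilengitide wound 1, 2 or 3, with all groups in one fit (adjusted p = 0.138) and at 3-fold.

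For the other 9 members the fold change did not pass. Cdh5 had 153.6, 101.9, 74.1 and 133.8 CPM with cilengitide (log2 -0.78 ± 0.379, adjusted p = 0.163) and Pecam1 had 174.4, 130.2, 91.4 and 152.2 CPM (log2 -0.73 ± 0.275, adjusted p = 0.0860). Both overlapped the vehicle wounds. Kdr, the VEGF receptor, had 54.3, 53.0, 28.6 and 57.4 CPM (log2 -0.65 ± 0.366, adjusted p = 0.221), wound 3 lying below the others. Vwf had 42.3, 49.1, 37.8 and 35.7 CPM, within the vehicle range (log2 -0.08 ± 0.273, adjusted p = 0.848), and Tek had log2 -0.23 ± 0.361 (adjusted p = 0.665).

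Among the other lists, 4 of 16 pan-endothelial genes were called lower (Acvrl1 at log2 -2.0 ± 0.473, Cd93 at -1.56 ± 0.332, Rasip1 at -1.36 ± 0.376), with 15 of 16 fold changes negative. Of 8 VEGF ligands and receptors 3 were lower (Pgf at -1.77 ± 0.514, Nrp2 at -1.14 ± 0.275, Vegfc at -1.09 ± 0.299), and of 10 tip cell and activation genes 2 (Cxcr4 at -1.83 ± 0.564 and Pgf again). Of 11 transcription factors Sox7 (2.11 ± 0.280) and Klf4 (2.10 ± 0.556), both also expressed outside endothelium, were higher and 2 were lower (Klf2 at -2.03 ± 0.507). Icam1 (-1.43 ± 0.351), Notch4 (-1.14 ± 0.291) and Pdpn (-1.58 ± 0.379) were lower in their lists, and the mural gene Notch3 was higher (1.39 ± 0.417). None of 4 angiopoietin partners was called.

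In the same wounds 5 of 9 leukocyte markers were lower with cilengitide (Itgam at -2.71 ± 0.640, Ptprc at -2.29 ± 0.509) and summed to 2790 to 4709 CPM. Of 4 red blood cell genes 3 were lower, of 5 platelet markers tested Pf4 was lower (-2.04 ± 0.522) and Gp1bb higher, and of 6 keratinocyte markers 2 were higher (Krt10 at 6.58 ± 1.52, Krt1 at 6.09 ± 1.76), with a sum of 31802 to 65614 CPM against 59.97 to 11483 with vehicle. No fibroblast marker was called (median log2 -0.62). The part of these cells in the Angpt2 difference was not tested.

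Set against WT with vehicle, Col5a1CKO wounds with cilengitide had positive fold changes in all 10 members, with a median log2 of 1.30 against -0.01 over all genes, and 0 were called, where 5.15% of 15514 genes were called higher and 3.43% lower. At an unadjusted p under 0.05 there were 4 of 10 members and 6244 of all genes, a like share. DESeq2 called 5 members (Pecam1, Tek, Eng, Emcn and Angpt2), with 1448 genes higher and 718 lower. The calls over all genes rested on single wounds, with 1 higher and 0 lower without cilengitide wound 3 or 4 and 3 and 0 without wound 2. Angpt2 (log2 1.87 ± 0.669, adjusted p = 0.0785), Eng (1.51 ± 0.504, adjusted p = 0.0667) and Emcn (1.68 ± 0.592, adjusted p = 0.0757) did not overlap with WT, as 14.5% of genes did not in that direction. Without WT wounds 3 and 4 there were 0 calls, and the log2 fold changes ran from -0.10 (Vwf) to 1.10 (Angpt2). In contrast, without WT wound 2 alone 4 members were called (Tek, Tie1, Eng and Emcn), with 1192 genes higher and 606 lower of 15776. Of the other lists, 2 of 16 pan-endothelial genes, 3 of 10 tip cell and activation genes, 4 of 5 leukocyte-recruiting genes and 4 of 9 leukocyte markers were called higher. This comparison shares its wounds with the preceding comparisons, so the 3 sets of fold changes are not independent.

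Ratios within a library show how far the members moved apart from each other and do not depend on scaling. They are given as ranges with no test. The ratio of Kdr to Cdh5 overlapped between the groups of the second table, at 0.268 to 0.482 in WT with vehicle, 0.362 to 0.409 in Col5a1CKO with vehicle and 0.353 to 0.520 with cilengitide. Angpt2 stood at 0.101 to 0.198 of Cdh5 in WT with vehicle, at 0.255 to 0.478 in Col5a1CKO with vehicle and at 0.193 to 0.277 with cilengitide. Vwf went the other way, at 0.415 to 0.585 in WT with vehicle, 0.156 to 0.282 in Col5a1CKO with vehicle and 0.267 to 0.511 with cilengitide.

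In the first table the ratios of WT wounds at day 14 spread more than those of WT wounds with vehicle. Angpt2 to Cdh5 at day 14 was 0.123 to 0.681 for WT, which holds the whole Col5a1CKO range of 0.194 to 0.612, and 0.114 to 0.149 and 0.119 to 0.243 at day 19. The day 14 range of WT pools both library sets. In the lower set the ratio was 0.513 to 0.681 in WT wounds a to d and 0.194 to 0.612 in Col5a1CKO wounds a to e. In the upper set it was 0.123 to 0.166 in WT wounds e to g, and 0.317 and 0.196 in Col5a1CKO wounds f and g. Vwf to Cdh5 at day 14 was 0.287 to 0.820 for WT and 0.379 to 0.535 for Col5a1CKO, and at day 19 it stood at 0.809 to 1.25 and 0.796 to 1.03. Days 14 and 19 were not compared beyond these ranges, and day 19 libraries all belong to the upper library set.

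**Figure D4:**
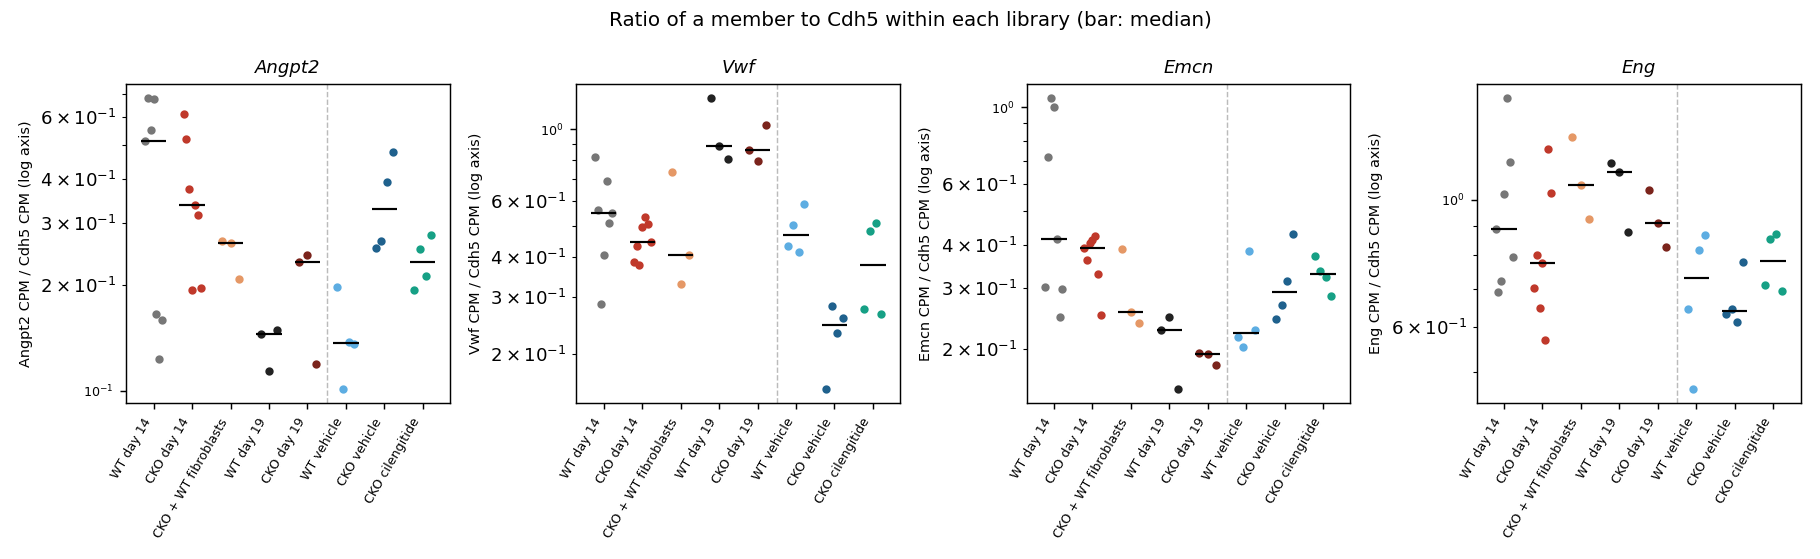
Ratio of the CPM of Angpt2, Vwf, Emcn and Eng to that of Cdh5 in each library, on log axes, by group, with the median as a bar. With vehicle, Angpt2 lies at 0.101 to 0.198 for WT against 0.255 to 0.478 for Col5a1CKO, and Vwf at 0.415 to 0.585 and 0.156 to 0.282.

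Among themselves the members ran together. Over the 45 pairs of members the Pearson correlation of log2(CPM + 1) had a median of 0.78 (0.41 to 0.96) across 23 libraries of the first table and 0.94 (0.78 to 0.99) across 12 of the second, where groups, libraries of low level and cell content are shared by all pairs. The 5 other genes whose levels were most like the members' mean Z score, among genes of at least 5 CPM, were Gpr116 (r = 0.973), Col4a1 (0.959), Dysf (0.959), Col4a2 (0.958) and Col15a1 (0.956) in the first table, of 12057 compared. In the second table they were Esam (0.993), Aplnr (0.993), Mmrn2 (0.991), Col15a1 (0.991) and Arhgef15 (0.990), of 11628 compared. Col4a1, Col4a2 and Col15a1 encode basement membrane collagens, and Esam, Mmrn2 and Aplnr were in the vascular lists. These values describe the libraries and carry no test.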

How the data were processed

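RNA-seq of mouse skin wounds was read from 2 deposited tables of raw counts. The methods name Hisat2 for alignment, with mm9 as the genome, and the authors counted reads in SeqMonk over RefSeq exons, which the methods do not state for the cilengitide libraries. Rows with no gene name (at most 0.0694% of a library) were left out. Replicates were samples that the labels list separately. The labels do not say whether each came from its own mouse, while the methods state that n counts separate biological replicates. Of 69 pairs of libraries within groups none agreed within sampling noise (chi-square per degree of freedom at least 31.3).

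Genes were filtered by filterByExpr (minimum count 10), TMM-normalized and tested between 2 groups in edgeR 4.0.16 (robust quasi-likelihood fit, R 4.3.3). A call needed a Benjamini-Hochberg adjusted p under 0.05 and 2-fold. Levels were CPM with TMM factors over each table or RPKM computed from the deposited counts and transcript lengths, and the standard error is that of the log2 fold change, approximated from the F statistic. The fits were tested on simulated data. The p-values measure only the spread between these samples.

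The members and lists were chosen with earlier results of these data known. Named are all members, up to 3 called genes of each list with the largest change (otherwise the 2 with the smallest adjusted p), and 5 genes per table most like the members. Alternatives were DESeq2 1.42.0, other scaling, filters, folds, the replicate letter, the library set and leaving out wounds. Leaving out both low WT vehicle wounds, taking shared letters without the block and testing the days within the upper set were chosen after seeing the data.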

Additional observations from a re-analysis of the deposited data

Results flagged for a closer look

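Of 50 sets of member and group with 4 to 10 wounds, 2 held a wound that stood apart from the rest of its group by Dixon's test, at a level that chance gives in about 1 of 20. Eng reached 192 CPM in Col5a1CKO wound f at day 14, where the other 6 wounds lay between 51.5 and 84.3 CPM. Without wound f, 5 members remained called at day 14 (Cdh5, Kdr, Flt1, Vwf and Eng). Day 14 fits without 1 wound called 494 to 928 genes higher and 191 to 984 lower, and the count of the fit without wound f is not given. Kdr was 28.6 CPM in cilengitide wound 3, where the other 3 lay between 53.0 and 57.4 CPM. That wound also had the lowest summed level of the members in its group, 412.9 CPM.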

How the results depend on the processing

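No alternative scaling (median-of-ratios or library size only) turned the sign of a member in any comparison. Scaling by library size moved the median log2 fold change of all genes from -0.03 to 0.13 at day 14, from -0.01 to -0.39 at day 19 and from 0.03 to 0.16 for WT fibroblasts against WT, and the calls over all genes at day 14 from 800 higher and 390 lower to 1018 and 246. At day 14, 6 members were called, 3 at 3-fold, 2 within the upper library set and 5 to 7 without 1 wound. At day 19 the count went from 0 to 3 with DESeq2, and leaving out 1 wound gave 0 to 6. For WT fibroblasts against WT the count went from 5 to 9 with the library set as a covariate and 10 within the upper set, with 1 to 6 without 1 wound. In the vehicle comparison it went from 5 to 9 with DESeq2 or all groups in one fit and to 2 without both low WT wounds, with 2 to 9 without 1 wound. For cilengitide against vehicle it went from 1 to 0 with all groups in one fit or at 3-fold, with 0 to 1 without 1 wound. Against WT with vehicle cilengitide went from 0 to 5 with DESeq2, with 0 to 4 without 1 wound. Leaving out any wound gave 0 for WT fibroblasts against Col5a1CKO. Over all genes, DESeq2 called 1245 higher and 850 lower at day 14, 684 and 713 (against 3 and 0) at day 19, 863 and 1176 (against 578 and 316) for WT fibroblasts against WT, and 1448 and 718 (against 799 and 532) for cilengitide against WT. One fit over all groups gave 1516 and 906 at day 14 and 310 and 173 for cilengitide against WT, and leaving out both low WT wounds gave 1301 and 1304 (against 2706 and 2065) and 11 and 10 in the comparisons with WT vehicle. Within the upper set WT fibroblasts against WT gave 2999 and 1691. No count over all genes is given for that comparison with the library set as a covariate, or for 3-fold. None is given either for all groups in one fit in the vehicle and the cilengitide against vehicle comparisons. The member counts of those settings are thus not set against all genes.

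For WT fibroblasts against Col5a1CKO, the library set as a covariate gave 0.05 for Pecam1, 0.31 for Flt1 and -0.07 for Eng. The upper set gave 0.11, 0.37, -0.02 for the same genes, 0.04 for Tek and 0.03 for Emcn, and the shared letters without the block gave 0 for Kdr. Against WT, Tek was -0.54 with the replicate block and -0.49 with the shared letters alone. Vwf was -0.07 in the vehicle comparison and -0.10 for cilengitide against WT without both low WT wounds. Leaving out 1 wound in the fibroblast comparison gave -0.24 to 0.09 for Pecam1, -0.12 to 0.28 for Cdh5, -0.22 to 0.08 for Flt1 and -0.12 to 0.53 for Vwf, and for cilengitide against vehicle -0.42 to 0.06 for Tek and -0.26 to 0.18 for Vwf. The cause was not tested.

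Whether the letters a to g pair the wounds could not be decided, because the day 14 groups hold wounds of both library sets. Same-letter correlations of deviations from the group means ran from -0.40 to 0.48 at day 14, and 4 of 14 wounds correlated best with their own letter. It was 0 of 6 at day 19, 2 of 6 for fibroblasts against Col5a1CKO and 4 of 6 for fibroblasts against WT. With the replicate block 5 members were called at day 14, 0 at day 19, 0 for fibroblasts against Col5a1CKO (with 1415 genes higher and 1125 lower) and 4 against WT (1458 and 1718). No count over all genes is given for the block at day 14 or day 19, so those member counts are not set against all genes. In the fibroblast comparisons the shared letters set upper-set wounds against lower-set wounds only.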
